A study of Mus musculus with 8 samples.

Results

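The cortex of the mouse embryo was compared between the embryonic days E11.5 and E12.5. All 4 cortices of the E12.5 table were set against all 4 of the E11.5 table, with genotype as a term, which takes in all 8 samples of the series. Genes were paired one to one by symbol or registered synonym, which left 22849 genes, and the 15006 with enough counts were tested. The study sequenced cortical RNA to see whether loss of Mboat7, the enzyme that places arachidonic acid into phosphatidylinositol, alters expression around the time its effects on the cortex appear. Each stage held 2 Mboat7+/- embryos, which served as controls and carry 1 deleted copy, and 2 embryos labelled Mboat7-/-, from a global knockout line generated previously and kept on C57BL/6N. Each library came from the cortex of 1 embryo, and embryos were not chosen by sex. E11.5 libraries were sequenced by Rhelixa and E12.5 libraries by KOTAI Biotechnologies on a different instrument, and the tables, with 23420 and 78298 genes, were counted on different annotations. Stage, provider, instrument and annotation therefore form a single term and cannot be told apart. The study's methods ask for batch correction before any such comparison, which this design cannot supply. Ranks within a library, ratios of genes within a library and genes with a known developmental course are given as well. Ranks and ratios remove library scaling only and still carry the provider and the annotation.

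Both stages lie in the early part of neurogenesis, when the dividing cells of the cortical wall already make neurons. Radial glial cells divide at the ventricle and produce neurons directly or through intermediate progenitors, and the transcription factors Pax6, Eomes (Tbr2) and Tbr1 mark these successive states. Cajal-Retzius cells and the deep-layer projection neurons are the earliest neurons of the cortex. A separate programme, in which Lin28 proteins and the let-7 microRNAs oppose each other, times the change from early to later progenitors.

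The total count per cortex lay between 21843330 and 28189771 at E11.5 and between 20799311 and 23330432 at E12.5, and the matched genes held 99.3 to 99.4% of the counts at E11.5 and 94.2 to 94.6% at E12.5. The first principal component, with 84.2% of the variance, separated the stages. Mboat7 had 700, 876, 1103 and 860 counts at E11.5 and 739, 782, 730 and 729 at E12.5, in the order Mboat7+/- replicates 1 and 2 and Mboat7-/- replicates 1 and 2, the order kept for every list of values here. Per library size it was not lower at E11.5 in the libraries labelled Mboat7-/- and slightly lower there at E12.5, with no loss of the transcript at either stage, so genotype rests on the labels. The female transcript Xist had 17875 counts in E11.5 Mboat7+/- replicate 1 and at most 2 elsewhere, and the Y-linked gene Ddx3y was at 0 in that cortex and at 443 to 1321 counts in the others.

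All cortices carried the markers of dorsal forebrain. Emx1, restricted to the pallium, was at 54.4, 62.9, 34.3 and 47.5 CPM at E11.5 and 81.6, 84.9, 88.5 and 81.7 CPM at E12.5. Emx2, Lhx2 and Pax6 lay between 106 and 614 CPM in every library. Emx1 was higher in every E12.5 cortex than in any E11.5 cortex but stayed under the 2-fold limit (log2 fold change 0.78, standard error 0.12, adjusted p = 7.82e-05).

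A gene was called when edgeR's quasi-likelihood test gave a false discovery rate (FDR) under 0.05 and the log2 fold change was at least 1 in size, the criterion the study used. CPM is the count of a gene scaled to the same normalized library size in every cortex, and adjusted p-values are those of this test with Benjamini-Hochberg adjustment. Of all genes tested, 1436 (9.57%) were called higher and 1914 (12.8%) lower at E12.5. As a check that uses no normalization, each gene was also given its percentile rank by count within its library, and a rank difference was taken where the 4 ranks of one stage did not overlap the 4 of the other and the means differed by at least 5 points. This held for 3033 genes (20.2%) toward E12.5 and 3260 (21.7%) toward E11.5. Of the called genes, 83.9% also passed on rank in the same direction, a comparison made on the same counts. The median log2 fold change over all genes was -0.02, and scaling by total counts moved it by a further -0.14. For any single call the stage, the provider and the annotation cannot be told apart, and the counts of list members below are read against 9.57% and 12.8%. These shares varied with the length of the 3′ untranslated region (UTR). They were 5.31% higher and 16.6% lower under 1000 bases, and 26.4% and 3.89% at 4000 bases or more. List counts were not matched for this length.

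Transcription factors of postmitotic cortical neurons were higher at E12.5. In bulk RNA, fewer cells of a type and less RNA per cell cannot be told apart, here and for every list that follows. Of 16 tested, 7 rose and none fell, with a median log2 fold change of 0.96, and 10 moved up in rank against 1, Nhlh2, that moved down. Neurod6, a bHLH factor of differentiating pyramidal neurons, was at 4.11, 9.79, 1.73 and 5.39 CPM at E11.5 and 106, 89.3, 111 and 158 CPM at E12.5. Even the highest E11.5 cortex was far below the lowest E12.5 cortex, and the mean percentile rank went from 24.1 to 84.5 (log2 fold change 4.47, standard error 0.34, adjusted p = 1.30e-07). Neurod2, its close relative, was at 10.9, 16.9, 3.32 and 13.8 CPM at E11.5 and 73.8, 57.1, 66.3 and 96.5 CPM at E12.5 (log2 fold change 2.73, standard error 0.33, adjusted p = 9.05e-06). Tbr1, which specifies early-born layer 6 and subplate neurons, was at 99.6, 118, 60.3 and 113 CPM at E11.5 and 225, 231, 233 and 230.0 CPM at E12.5, so the E12.5 cortices lay close together while E11.5 Mboat7-/- replicate 1 was below the rest of its stage (log2 fold change 1.24, standard error 0.15, adjusted p = 8.56e-06). Bcl11b (Ctip2), the determinant of subcerebral projection neurons, was at 74.7, 76.4, 59.6 and 87.5 CPM at E11.5 and 223, 204, 227 and 270.3 CPM at E12.5 (log2 fold change 1.63, standard error 0.11, adjusted p = 4.30e-08). Bhlhe22, Myt1l and Zfpm2 also rose, with log2 fold changes of 1.89, 1.92 and 1.37, and Zfpm2 came to 0.99 when its fold change was adjusted for transcript length and GC content. Cux2, a factor of later-born upper-layer neurons, did not meet the criterion, at 40 ± 2.98 CPM at E11.5 and 36 ± 6.5 CPM at E12.5 (SD, n = 4). Fezf2, already active in early progenitors, gave 0.09 (adjusted p = 0.445), and Nhlh2, a factor of young neurons, gave -0.75. Bcl11a, a factor of deep-layer neurons, sat at the limit (1.00) and passed under 9 of the alternatives, which made the count 8.

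Structural and synaptic genes of neurons followed. Of 26, 10 rose and none fell, with a median of 0.79, and 15 moved up in rank against 1 down (Stx1a). The count was 6 without E11.5 Mboat7-/- replicate 1 and 7 with scaling by total counts. Dcx, the microtubule-associated protein of migrating neurons, was at 199, 247, 154 and 283 CPM at E11.5 and 685, 505, 647 and 707 CPM at E12.5, without overlap (log2 fold change 1.52, standard error 0.16, adjusted p = 2.32e-06). It fell just short of the 2-fold limit after length and GC adjustment (0.93). Mapt (tau) was at 62.6, 87.1, 42.1 and 85 CPM at E11.5 and 248, 224, 226 and 306 CPM at E12.5 (log2 fold change 1.86, standard error 0.19, adjusted p = 1.83e-06). Ina, an early neuronal intermediate filament, had a log2 fold change of 1.67, the synaptotagmins Syt1 and Syt4 of 1.55 and 2.33, and Map2 of 1.05. Stmn2 and Stmn3, regulators of microtubule turnover, and Gria2, a glutamate receptor subunit, gave 1.08, 1.13 and 1.16. Map2, Stmn2, Stmn3 and Gria2 are the calls lost without E11.5 Mboat7-/- replicate 1, at 0.92, 0.92, 0.97 and 0.85. After length and GC adjustment 7 of the list were called, and Map2, Stmn2 and Gria2 came to 0.76, 0.89 and 0.49. The largest difference in this list was that of Grin2b, an NMDA receptor subunit, which was nearly absent at E11.5, with 0.353, 0.289, 0.136 and 0.31 CPM, and reached 24.4, 16.1, 21.5 and 31.4 CPM at E12.5. Tubb3, the neuronal tubulin, already strong at E11.5, was at 807 ± 193 CPM at E11.5 and 1567 ± 107 CPM at E12.5 (SD, n = 4) and lay just under the limit (log2 fold change 0.97, standard error 0.12, adjusted p = 8.69e-06).

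**Figure D1:**
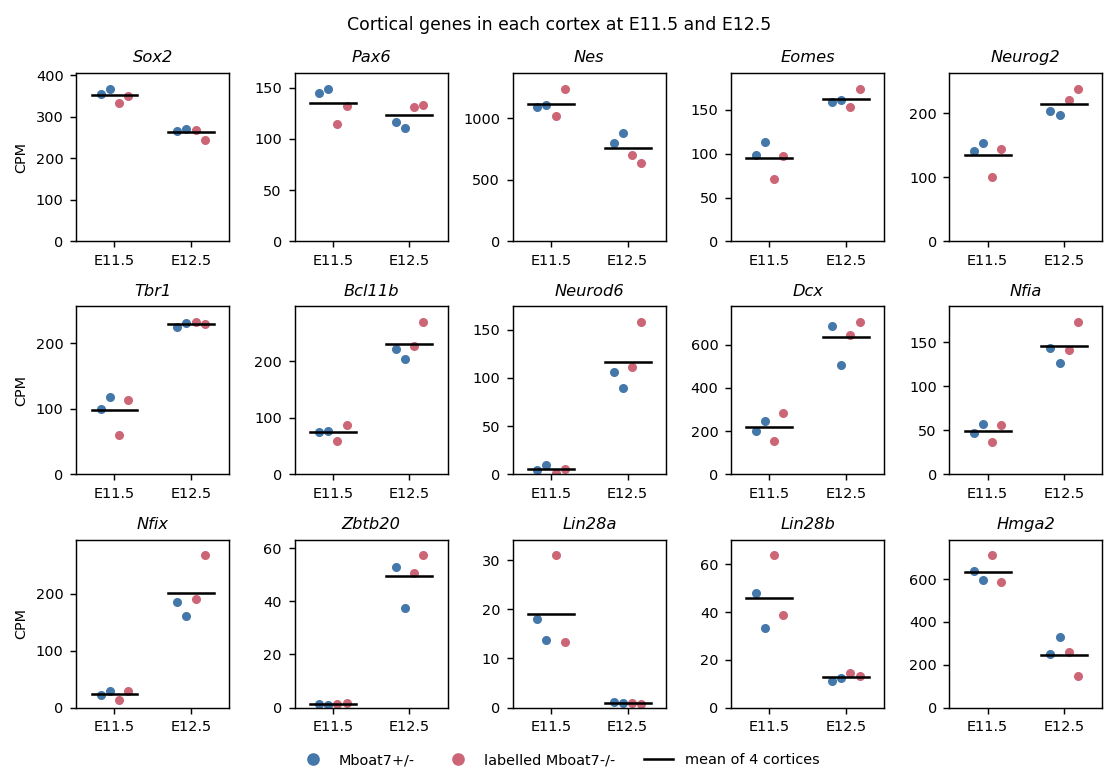
CPM (linear axes from 0) of 15 genes in each of the 4 cortices at E11.5 and at E12.5. Points are single cortices, coloured by genotype label, and bars are means of 4. Radial glial genes (Sox2, Pax6, Nes) differed by less than 2-fold, Tbr1, Bcl11b, Neurod6, Dcx, Nfia, Nfix and Zbtb20 rose without overlap, and Lin28a, Lin28b and Hmga2 fell without overlap.

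Genes of radial glial identity were not called more often than all genes. Of 17, 1 rose (5.88%, against 9.57% of all genes) and none fell (against 12.8%). The list median was -0.07, against a spread of 0.06 between replicate cortices. Pax6 was at 145, 149, 115 and 132 CPM at E11.5 and 117, 111, 131 and 133 CPM at E12.5, with overlapping values (log2 fold change -0.14, standard error 0.09, adjusted p = 0.191). Sox2, the core factor of neural stem cells, was at 355, 368, 333 and 351 CPM at E11.5 and 266, 270.4, 268 and 243 CPM at E12.5, lower at E12.5 in every cortex but by only 1.34-fold (log2 fold change -0.42, standard error 0.05, adjusted p = 1.72e-05). Nes (nestin) was at 1088, 1103, 1015 and 1241 CPM at E11.5 and 795, 882, 701 and 639 CPM at E12.5 (log2 fold change -0.57, standard error 0.09, adjusted p = 8.21e-05), and Vim and Sox1 gave -0.07 and 0.01. The called gene was Id4, an inhibitor of bHLH factors, at 288, 303, 233 and 268 CPM at E11.5 and 529, 567, 558 and 528 CPM at E12.5, and its value of 1.00 sat at the limit and was 0.86 with total-count scaling and 0.74 after length and GC adjustment. The sign of the list median was not stable: it was -0.22 with total-count scaling and 0.021 after length and GC adjustment.

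Among 14 intermediate progenitor and proneural genes, 1 rose (7.14%, against 9.57% of all genes) and the median was 0.09. Eomes, which defines intermediate progenitors, was at 98.5, 114, 71.6 and 97.3 CPM at E11.5 and 159.5, 161, 154 and 174 CPM at E12.5, so every E12.5 cortex exceeded every E11.5 cortex, by 1.71-fold on average (log2 fold change 0.78, standard error 0.10, adjusted p = 2.00e-05). Neurog2, the main proneural factor of the pallium, was at 135 ± 23.5 CPM at E11.5 and 216 ± 18.7 CPM at E12.5 (SD, n = 4; log2 fold change 0.68) and Neurod1 at 20.3 ± 3.1 CPM at E11.5 and 35.5 ± 4.41 CPM at E12.5 (SD, n = 4). Neurog1, in contrast, was at 30.8 ± 4.24 CPM at E11.5 and 17.4 ± 0.887 CPM at E12.5 (SD, n = 4) and moved down in rank. Sstr2, a somatostatin receptor, was the member that rose, at 6.89, 4.73, 2.48 and 5.39 CPM at E11.5 and 36.2, 30.7, 35.2 and 47.7 CPM at E12.5 (log2 fold change 2.96, standard error 0.23, adjusted p = 1.90e-07). The Notch ligands Dll1 and Dll3 gave -0.20 and -0.48.

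Among 14 genes that accompany the later, gliogenic state of radial glia, 6 rose and 1 fell at E12.5, with a median of 0.77. The 3 nuclear factor I genes of the list, which drive maturation of radial glia, all rose. Nfia was at 47.4, 56.9, 36.8 and 55.7 CPM at E11.5 and 144, 126, 142 and 174 CPM at E12.5 (log2 fold change 1.57, standard error 0.13, adjusted p = 2.92e-07). Nfib was at 70.1, 92.9, 60.8 and 88 CPM at E11.5 and 285, 217, 296 and 372 CPM at E12.5 (log2 fold change 1.90, standard error 0.15, adjusted p = 2.46e-07). Nfix was at 22.9, 29.7, 13.4 and 29.4 CPM at E11.5 and 185, 161, 191 and 269 CPM at E12.5, with a mean percentile rank that went from 48.5 to 92.7 (log2 fold change 3.07, standard error 0.22, adjusted p = 8.02e-08). For all 3 the lowest E12.5 cortex was above the highest E11.5 cortex by more than 2-fold, although Nfia came to 0.99 after length and GC adjustment. Zbtb20, a hippocampal and astroglial repressor, was at 1.37, 0.939, 1.36 and 1.67 CPM at E11.5 and 52.8, 37.3, 50.5 and 57.5 CPM at E12.5 (log2 fold change 5.22, standard error 0.16, adjusted p = 2.52e-11), and the glycolytic enzyme Aldoc, a radial glial and astrocyte marker, at 5.56, 6.29, 2.82 and 4.66 CPM at E11.5 and 81.6, 62.7, 80.8 and 109 CPM at E12.5 (log2 fold change 4.12, standard error 0.22, adjusted p = 4.56e-09). Fabp7 and Slc1a3 (Glast), established radial glial genes, were at 201 ± 45.4 CPM at E11.5 and 336 ± 20.8 CPM at E12.5 and at 47.4 ± 6.93 CPM at E11.5 and 80.2 ± 8.37 CPM at E12.5 (SD, n = 4). Bcan, a matrix proteoglycan, had a log2 fold change of 1.52, but its ranks overlapped and it was not called within the cortices labelled Mboat7-/- alone. Tnc, an extracellular matrix gene, fell, from 16.5, 22, 25.2 and 25.6 CPM to 6.47, 3.91, 5.64 and 10.2 CPM. Apoe, the lipid carrier of astrocytes, was at 99.8, 103, 111 and 98.8 CPM at E11.5 and 48.6, 51, 50.3 and 61.7 CPM at E12.5, lower in every E12.5 cortex and just under the limit (log2 fold change -0.97, standard error 0.07, adjusted p = 1.54e-07), and it was called lower under 5 alternatives.

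The opposite course was seen for genes of early developmental timing. Of 14, 8 fell and none rose, with a median of -1.08, -0.89 in the Mboat7+/- cortices and -1.37 in those labelled Mboat7-/-. In fits of each genotype alone 6 and 8 were called lower, in the same order. Of the 10 members that share at most 5% of their 31-base words with other genes, 4 were called lower. Lin28a and Lin28b encode RNA-binding proteins that block the processing of let-7 precursors, and several other members are known let-7 targets. The mature let-7 family shares its seed, bases 2 to 8, shown in capitals in the RefSeq sequences on GRCm38.p6 of 6 of the 8 members. These microRNAs are the partner of the genes described here and were not measured, since the counts are of poly(A) RNA.
mmu-let-7a-5p (chr13:48538239-48538260, minus strand): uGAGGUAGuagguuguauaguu
mmu-let-7b-5p (chr15:85707325-85707346, plus strand): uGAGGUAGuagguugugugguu
mmu-let-7d-5p (chr13:48536078-48536099, minus strand): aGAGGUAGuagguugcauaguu
mmu-let-7e-5p (chr17:17830366-17830387, plus strand): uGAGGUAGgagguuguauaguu
mmu-let-7g-5p (chr9:106178846-106178867, plus strand): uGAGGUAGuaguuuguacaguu
mmu-let-7i-5p (chr10:122985698-122985719, minus strand): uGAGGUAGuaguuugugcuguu
The seed pairs with the heptamer CTACCTC, which was sought on the transcript strand of the longest 3′ UTR of each gene in GENCODE release M21 (GRCm38). It stood in 10.7% of the 14316 UTRs of tested genes and in 10 of the 14 timing genes, which held 31 matches together. As the list includes known let-7 targets, its share follows in part from the choice of members. The shares were also not matched for UTR length, whose median was 1096 bases without a match and 2197 with 1. The match closest to the stop codon of each member that fell and holds 2 or more is given here with the 15 bases before it, in transcript orientation and with the heptamer in capitals.
Lin28a (chr4:134005190-134005211, minus strand, 1 of 2 matches): gcacagcctgttgaaCTACCTC
Lin28b (chr10:45381023-45381044, minus strand, 1 of 4 matches): acccgggcgggaagtCTACCTC
Hmga2 (chr10:120364225-120364246, minus strand, 1 of 4 matches): gccgacattcaatttCTACCTC
Trim71 (chr9:114512473-114512494, minus strand, 1 of 4 matches): aacattgcctaagtcCTACCTC
Arid3a (chr10:79953895-79953916, plus strand, 1 of 2 matches): aaggcaagtttctttCTACCTC

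Lin28a was at 18.1, 13.7, 31.1 and 13.3 CPM at E11.5 and 1.23, 1.03, 0.916 and 0.739 CPM at E12.5, a 19.3-fold difference (log2 fold change -4.27, standard error 0.30, adjusted p = 7.95e-08). Its E12.5 values were near 1 CPM, against a floor of 3 counts at 0.129 to 0.144 CPM, and its mean percentile rank went from 43.5 to 12.3. Lin28b was at 47.9, 33.4, 64 and 38.7 CPM at E11.5 and 11.1, 12.2, 14.4 and 13.3 CPM at E12.5 (log2 fold change -1.85, standard error 0.16, adjusted p = 3.79e-07). The E11.5 cortices were all above the E12.5 cortices for both genes, and within E11.5 the highest value of both belonged to Mboat7-/- replicate 1. Hmga2, a chromatin protein of young stem cells, was at 635, 597, 713 and 587 CPM at E11.5 and 252, 328, 258 and 147 CPM at E12.5 (log2 fold change -1.38, standard error 0.17, adjusted p = 8.71e-06), with its lowest value in E12.5 Mboat7-/- replicate 2. Its rank was lower in every E12.5 cortex by a mean of -4.90 points, short of the 5 points required of a rank difference. Arid3a, Sall4, the de novo methyltransferase Dnmt3b and the retinoic acid binding protein Crabp2 fell, with log2 fold changes of -1.28, -1.59, -1.26 and -1.15. Crabp2 was not called within the Mboat7+/- cortices alone (-0.92). Trim71, a ubiquitin ligase of early embryos, was at 6.58, 2.42, 11.9 and 5.35 CPM at E11.5 and 2.89, 3.86, 3.13 and 2.61 CPM at E12.5 (log2 fold change -1.01, standard error 0.36, adjusted p = 0.0233), and its call was lost under 8 alternatives, with -0.61 without E11.5 Mboat7-/- replicate 1 and -0.90 with replicate number as a block. Igf2bp1, Igf2bp2 and Igf2bp3, mRNA-binding proteins of fetal tissue, lay under the limit at -0.74, -0.83 and -0.53, each lower in every E12.5 cortex. Nr6a1, an orphan receptor with 8 matches, gave -0.70, and Mycn (0.12) and Ccnd1 (-0.39) were not called.

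Length and let-7 matches of the 3′ UTR were followed over all genes, after the values were seen and as a description. Genes with longer UTRs had higher fold changes: the median was -0.18 for the 6233 genes with a UTR under 1000 bases, 0.00 for 3695 genes from 1000 to 2000 bases, 0.17 for 3181 genes from 2000 to 4000 bases and 0.45 for 1207 genes of 4000 bases or more. In the longest class 26.4% of genes were called higher and 3.89% lower. Before adjustment, the median of genes with let-7 matches lay under that of genes without in each length class. From 1000 to 2000 bases the medians were 0.01, -0.11 and -0.20 for 0, 1 and 2 or more matches, from 2000 to 4000 bases they were 0.17, 0.15 and 0.07, and from 4000 bases on they were 0.46, 0.45 and 0.30. After length and GC adjustment these medians were -0.0070, -0.0052 and -0.20, then -0.0090, -0.016 and -0.043, then 0.055, 0.042 and -0.065. In these classes the gap for 1 match was near 0. Under 1000 bases the adjusted median was -0.11 without a match (5986 genes) and -0.18 with 1 (240 genes). Across all lengths and before adjustment, genes with 1 or 2 matches did not lie under those without. The medians were -0.02, 0.04 and 0.14 for 0, 1 and 2 matches, in UTRs whose median lengths were 1096, 2197 and 3479 bases. The 12 genes with 4 or more matches had a median of -0.72, which rests on 5 genes of the timing list with a median of -1.01. The other 7 had a median of 0.17. These were Trim6 (6 matches, -2.58), Hic2 (4 matches, -0.89), Mcf2l (7 matches, 0.16), Nudt12 (7 matches, 0.17), Ptafr (4 matches, 0.57), D10Wsu102e (4 matches, 0.64) and Zbtb37 (4 matches, 3.43). After length and GC adjustment the 12 genes had a median of -0.98. These 7 then had -2.78, -0.93, 0.12, -0.14, 0.59, -1.13 and 2.54, in the order given. The UTRs of D10Wsu102e and Zbtb37 were 122583 and 16999 bases long. The longest UTR class had an adjusted median of 0.04, and the annotation behind each table and the stage cannot be told apart here.

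**Figure D2:**
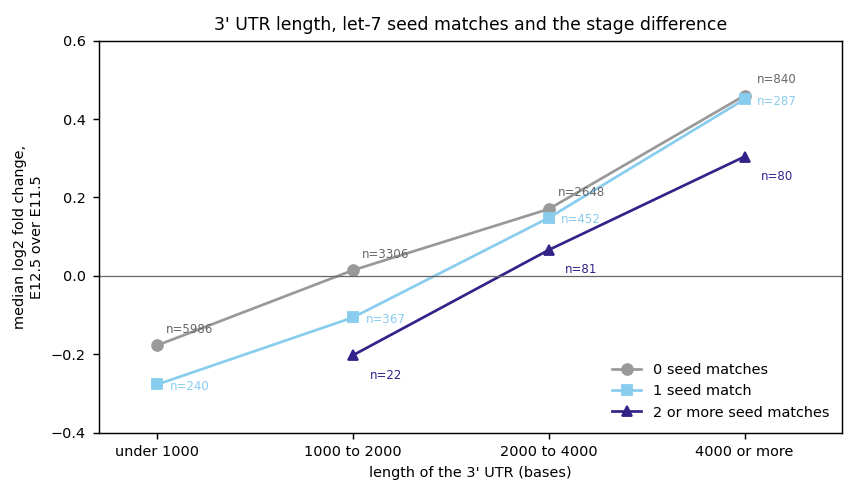
Median log2 fold change (E12.5 over E11.5) of genes grouped by the length of the longest 3′ UTR (x axis, bases) and by the number of let-7 seed matches in it. Each point is 1 group with its number of genes, and the group of 7 genes with short UTRs and 2 or more matches is not drawn. Medians climbed with length from -0.18 to 0.46 without matches, and groups with 2 or more matches lay under those without.

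Cajal-Retzius genes did not move together. Reln, the secreted signal of these cells, rose, at 33.4, 39.7, 25.2 and 37.6 CPM at E11.5 and 128, 103, 135 and 159 CPM at E12.5 (log2 fold change 1.95, standard error 0.14, adjusted p = 1.09e-07), and so did Trp73, at 19.2 ± 3.48 CPM at E11.5 and 42.5 ± 2.61 CPM at E12.5 (SD, n = 4), which gave 0.94 within the Mboat7+/- cortices alone. Lhx5, a marker of their hem and septal sources, fell, at 51.8, 61, 67.2 and 52.8 CPM at E11.5 and 15.4, 14.5, 12.8 and 14 CPM at E12.5 (log2 fold change -2.04, standard error 0.10, adjusted p = 3.31e-09), as did Ebf3 (-1.09). Lhx1, Ebf2, Ndnf, Cacna2d2 and Calb2 were not called. The median of the 9 genes was -0.04, and -0.37 after length and GC adjustment.

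Genes of the ventral telencephalon and of interneurons were present at both stages. Of 18, 7 rose and 1 fell, with a median of 0.70. Dlx1, a determinant of GABAergic neurons, was at 74.7, 76.7, 50.8 and 71 CPM at E11.5 and 239.7, 229, 220.3 and 248 CPM at E12.5 (log2 fold change 1.79, standard error 0.10, adjusted p = 8.42e-09). Sst, the neuropeptide of a class of interneurons, was at 3.53, 4.59, 1.66 and 2.91 CPM at E11.5 and 17, 13.3, 18.8 and 30.4 CPM at E12.5 (log2 fold change 2.64, standard error 0.30, adjusted p = 5.14e-06). Npy, another neuropeptide, gave 2.41. Lhx6, Slc32a1 (the vesicular GABA transporter), Lhx8 and Dlx6 rose by 1.14, 1.12, 1.01 and 1.02 on the log2 scale. All 4 calls were lost without E11.5 Mboat7-/- replicate 1 (0.97, 0.99, 0.90 and 0.76) and with total-count scaling (1.00, 0.98, 0.87 and 0.87), which left 3 members called higher. Gsx1, a progenitor gene of the ganglionic eminence, fell, at 11.3 ± 1.12 CPM at E11.5 and 4.58 ± 1.37 CPM at E12.5 (SD, n = 4), and its value was -0.98 after length and GC adjustment. Nkx2-1, which marks the medial ganglionic eminence and is not made in the pallium, was at 134, 98, 144 and 125 CPM at E11.5 and 84.6, 82.9, 72.3 and 74 CPM at E12.5, lower at E12.5. The summed level of the list was 649 to 884 CPM at E11.5 and 1162 to 1281 CPM at E12.5, and the part of ventral tissue in the dissections was not tested.

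Of 24 genes that pattern the forebrain, 4 fell (16.7%, against 12.8% of all genes) and 1 rose, with a median of -0.23, and after length and GC adjustment 3 fell and 4 rose. Fgf8, the anterior midline signal, was at 10.5, 9.54, 10.8 and 7.25 CPM at E11.5 and 1.6, 2, 1.59 and 1.53 CPM at E12.5 (log2 fold change -2.50, standard error 0.18, adjusted p = 1.04e-07), and Bmp4, made by the dorsal midline, was at 17, 21.6, 20.1 and 17.2 CPM at E11.5 and 3.8, 3.75, 3.57 and 3.11 CPM at E12.5 (log2 fold change -2.42, standard error 0.13, adjusted p = 6.50e-09). Fgf18 (-2.26) and Rspo1 (-1.19) also fell, the latter coming to -0.86 after length and GC adjustment. Wnt8b, a marker of the cortical hem region, was at 94.9 ± 3.77 CPM at E11.5 and 52 ± 7.54 CPM at E12.5 (SD, n = 4). It lay under the limit and was called lower only with total-count scaling (-1.02). Wnt3a (-0.12) and Lmx1a (-0.23), further hem genes, were not called either. Ttr, the transport protein made by the choroid plexus, rose, at 3.71, 11.4, 0.543 and 6.71 CPM at E11.5 and 149, 134, 107 and 282 CPM at E12.5. Its values were separated between stages but spread widely within E11.5 (log2 fold change 4.92, standard error 0.50, adjusted p = 2.14e-06).

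Genes of S phase and M phase were not called more often than all genes. Of 20 S-phase genes, 1 rose (5.0%, against 9.57% of all genes) and none fell. Of 18 M-phase genes, 1 fell (5.56%, against 12.8%) and none rose. The medians were -0.14 and -0.16. Mki67, the proliferation antigen and the M-phase gene that fell, was at 702, 639, 730.1 and 724 CPM at E11.5 and 354, 297, 313 and 392 CPM at E12.5 (log2 fold change -1.04, standard error 0.08, adjusted p = 1.41e-07), and the call was lost without E12.5 Mboat7+/- replicate 2 (-0.99) and without E12.5 Mboat7-/- replicate 1 (-0.98). Top2a and Cenpe gave -0.49 and -0.78, which became -1.29 for Cenpe after length and GC adjustment, whereas Cdk1 and Ccnb1 gave 0.25 and 0.36. Ccne2, a cyclin of S-phase entry, rose by 1.23 on the log2 scale (0.99 within the cortices labelled Mboat7-/- alone). Among 14 G1 regulators, Cdk6, a kinase partner of D cyclins, was at 4.24, 3.61, 5.02 and 3.49 CPM at E11.5 and 69.8, 59.9, 60.8 and 68.8 CPM at E12.5 (log2 fold change 3.98, standard error 0.12, adjusted p = 2.52e-11), and the inhibitor Cdkn2c at 7.43 ± 1.52 CPM at E11.5 and 30.5 ± 3.35 CPM at E12.5 (SD, n = 4). The inhibitor Cdkn1c fell, at 425 ± 47.8 CPM at E11.5 and 193 ± 18.6 CPM at E12.5 (SD, n = 4; log2 fold change -1.14), but gave -0.80 after length and GC adjustment and -0.95 within the Mboat7+/- cortices alone. Ccnd1 and Ccnd2, the D cyclins of cortical progenitors, gave -0.39 and 0.87.

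**Figure D3:**
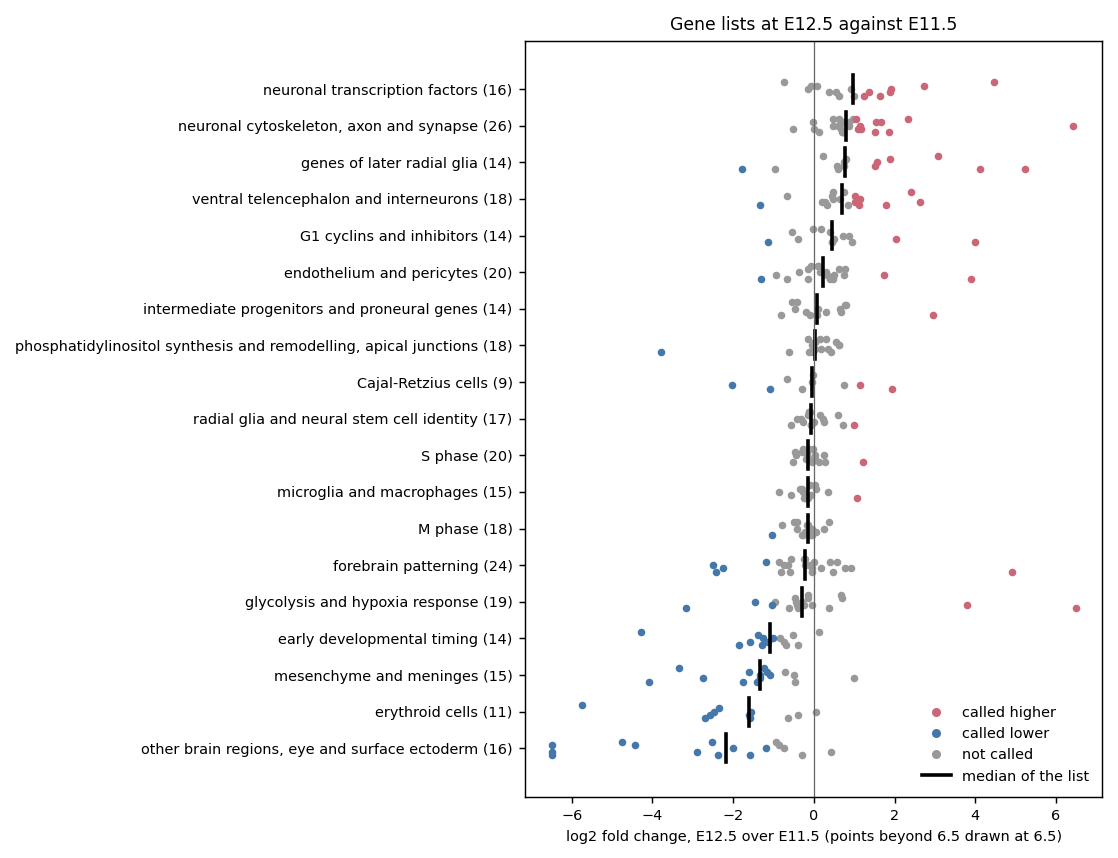
Log2 fold change (E12.5 over E11.5) of every tested gene in 19 gene lists, with the number tested in brackets. Points are genes, coloured by call, and bars are list medians. Neuronal lists and genes of later radial glia lay on the right, with medians from 0.77 to 0.96, and timing, mesenchymal, erythroid and non-cortical genes on the left, with medians from -1.08 to -2.18.

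Genes of tissue next to the cortex were lower at E12.5. Of 15 mesenchymal and meningeal genes, 11 fell and none rose, with a median of -1.34, and their summed level was 1862 to 2369.8 CPM at E11.5 and 707 to 937 CPM at E12.5. Twist1, a mesenchymal transcription factor, was at 52.6, 54.3, 68.5 and 57.3 CPM at E11.5 and 4.28, 3.44, 3.13 and 2.91 CPM at E12.5 (log2 fold change -4.08, standard error 0.13, adjusted p = 4.52e-11). Crabp1, Foxd1 and Foxc1, which mark head mesenchyme, had log2 fold changes of -3.35, -2.74 and -1.75, and the collagens Col1a1 and Col3a1 of -1.41 and -1.08, the latter not called within the Mboat7+/- cortices alone. Lum gave -0.49, and Dcn, a proteoglycan of differentiating meninges, went the other way, at 8.74, 9.75, 7.43 and 10.3 CPM at E11.5 and 19.5, 11.9, 17.4 and 24.2 CPM at E12.5, just under the limit, and its call was made under 10 of the alternatives. Of 16 tested genes of other brain regions, eye and surface ectoderm, 11 fell and none rose, with a median of -2.18 and summed levels of 437 to 491 CPM at E11.5 and 167 to 185 CPM at E12.5. Irx3, made behind the forebrain border, was at 45.5, 40.7, 52.8 and 44.5 CPM at E11.5 and 2.57, 1.59, 2.41 and 1.92 CPM at E12.5 (log2 fold change -4.43, standard error 0.14, adjusted p = 3.25e-11). En1, a midbrain and hindbrain gene, had 144, 182, 125 and 140 counts at E11.5 and was listed at 0 in every E12.5 cortex, as was Krt5, a surface ectoderm keratin. Both are among the 11. Tcf7l2, strong in thalamus, and Otx2, strong in midbrain, thalamus and dorsal midline, fell by 2.36 and 1.19 on the log2 scale. Gbx2 (-0.30) and Lhx9 (0.41), which also mark thalamus, were not called. Rax, of eye and hypothalamus, had 216, 278, 663 and 20 counts at E11.5 and 6 to 11 at E12.5. It varied widely between the E11.5 cortices, with the highest value in Mboat7-/- replicate 1 and the lowest in Mboat7-/- replicate 2. The hindbrain genes En2, Hoxa2 and Hoxb2 had too few counts to be tested. These genes move with the stage in the same direction as the timing genes, and the part of adjacent tissue in that result was not tested.

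Blood genes also differed. Of 11 erythroid genes, 8 fell, with a median of -1.61 and summed levels of 354 to 502 CPM at E11.5 and 191 to 236 CPM at E12.5. Slc4a1, the anion exchanger of red cells, was at 170.3, 120.2, 98.6 and 111 CPM at E11.5 and 38.5, 62.2, 39.6 and 25.2 CPM at E12.5 (log2 fold change -1.61, standard error 0.16, adjusted p = 1.81e-06), and Hemgn, a nuclear protein of erythroblasts, at 38.5, 22.3, 21.6 and 19.9 CPM at E11.5 and 0.267, 0.771, 0.482 and 0.345 CPM at E12.5 (log2 fold change -5.74, standard error 0.26, adjusted p = 1.10e-09). Gata1, Klf1 and Epor, which act in immature red cells, had log2 fold changes of -2.47, -2.71 and -2.58, whereas Alas2 and Tfrc gave -0.63 and 0.06. Of 8 globin genes, 6 were tested. Hbb-y was at 3181, 2604, 1604 and 1839 CPM at E11.5 and 2377, 3498, 2412 and 1542 CPM at E12.5, with no call (log2 fold change 0.11, standard error 0.14, adjusted p = 0.503). Hbb-bh1 was at 920.3, 647, 666 and 545 CPM at E11.5 and 92.3, 180.3, 96.2 and 36.5 CPM at E12.5 (log2 fold change -2.85, standard error 0.28, adjusted p = 1.46e-06), and Hba-x, the embryonic alpha-type chain, at 2275, 1559, 1070.1 and 1157 CPM at E11.5 and 444, 780.2, 489 and 246 CPM at E12.5 (log2 fold change -1.62, standard error 0.20, adjusted p = 1.37e-05). The adult genes were not comparable. Hba-a1 and Hba-a2, which are near copies of each other, were listed at 0 in every E11.5 cortex and held 19048 to 34888 counts at E12.5, Hbb-bt had no partner in the E11.5 table, and Hbb-bs was paired through the older name Beta-s and shares 66.9% of its 31-base words with other genes.

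Few vascular and microglial genes were called. Of 20 endothelial and pericyte genes, 2 rose and 1 fell, with a median of 0.23 and summed levels of 639 to 734 CPM at E11.5 and 644 to 734 CPM at E12.5. Pecam1, Kdr and Tek, defining endothelial genes, gave 0.16, 0.11 and -0.08. Rgs5, a pericyte gene, rose, at 2.56, 3.07, 1.15 and 3.26 CPM at E11.5 and 30.8, 26, 36.1 and 58.2 CPM at E12.5 (log2 fold change 3.88, standard error 0.28, adjusted p = 9.36e-08), and so did Slco1c1, a thyroid hormone transporter of brain vessels (1.74), while Egfl7 fell (-1.31). Of 15 microglial and macrophage genes, 1 rose (6.67%) and none fell, with a median of -0.15. P2ry12, a receptor of homeostatic microglia, was at 1.12 ± 0.36 CPM at E11.5 and 2.33 ± 0.519 CPM at E12.5 (SD, n = 4; log2 fold change 1.06), a call lost under 9 of the alternatives, and Csf1r and Cx3cr1 gave 0.04 and -0.08.

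Of 19 glycolytic genes and hypoxia targets, 2 were called higher (10.5%) and 3 lower (15.8%), near the shares of all genes, with a median of -0.28. Adm (-0.39) and Ankrd37 (-0.42), both hypoxia targets, were not called. Vegfa, the vascular growth factor, was at 107, 92.4, 125 and 96.9 CPM at E11.5 and 34.6, 35.3, 38.6 and 44.7 CPM at E12.5 (log2 fold change -1.46, standard error 0.09, adjusted p = 1.99e-08), Slc2a3 gave -1.03 and Car9 -3.17. The call of Slc2a3, a glucose transporter, was lost under 4 alternatives, with values from -0.94 to -0.99. Ldha, Pkm and Pgk1 gave -0.25, -0.05 and 0.36. Gapdh (3.79) and Eno1 were called higher, but Eno1, which every cell uses, was listed at 0 to 3 counts at E11.5 and 16132 to 20644 counts at E12.5, both have many processed copies, and 31.8% and 73.0% of their 31-base words occur in other genes. These values are uncertain.

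Genes of phosphatidylinositol synthesis and of apical junctions, the system the study examined, held a single called gene. Of 18, 1 fell (5.56%, against 12.8% of all genes) and none rose. The median was 0.04, a value that turned to -0.07 and -0.11 with upper-quartile and total-count scaling. Mboat7 was at 30.9, 31.6, 37.4 and 33.4 CPM at E11.5 and 39.5, 40.2, 35.2 and 35.9 CPM at E12.5 (log2 fold change 0.18, standard error 0.09, adjusted p = 0.0819). Cdipt, which makes phosphatidylinositol, gave 0.35, and Cds1 and Cds2, which supply its precursor, gave 0.63 and 0.56. Pip5k1a and Pip5k1c, kinases that make PI(4,5)P2, gave 0.62 and -0.15. Cdh2, the N-cadherin of radial glial junctions, was at 346 ± 15.4 CPM at E11.5 and 466 ± 9.49 CPM at E12.5 (SD, n = 4; log2 fold change 0.43). Cdh1 (E-cadherin), also the main cadherin of surface ectoderm, was at 11.9, 9.68, 13.6 and 13.9 CPM at E11.5 and 1.18, 0.771, 0.916 and 0.69 CPM at E12.5 (log2 fold change -3.78, standard error 0.20, adjusted p = 5.61e-09). It fell beside the ectodermal genes Epcam, Krt8 (-2.89) and Krt18 (-2.51), and their part in its change was not tested.

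Ratios of pairs of genes within a library carry no scaling between stages, but a test between stages still takes in the provider and the annotation. Of 6 ratios tested, 5 are given here. Their genes are list members, chosen with earlier results of these data known, so p describes the separation and is not independent support. All 6 were separated without overlap between the 4 E11.5 and the 4 E12.5 cortices, with the smallest p an exact permutation test of 4 against 4 can give (0.0286, two-sided, and 0.0286 after adjustment over the 6). Eomes over Pax6 was 0.678, 0.763, 0.623 and 0.738 at E11.5 and 1.37, 1.46, 1.17 and 1.31 at E12.5. Tbr1 over Sox2 rose from 0.181 to 0.322 at E11.5 to 0.847 to 0.945 at E12.5, and Dcx over Nes from 0.152 to 0.228 to 0.572 to 1.11. These ratios set a later state of the lineage over an earlier one, and they differed by 1.89-fold, 3.26-fold and 4.34-fold. Neurod6 over Neurog2 differed by 16.0-fold and Nfia over Hmga2 by 8.01-fold. Between globins, Hbb-bh1 over Hbb-y was 8.27-fold lower at E12.5 and Hba-x over Hbb-y 3.40-fold lower. These 2 ratios were chosen after the values were seen and have no test.

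**Figure D4:**
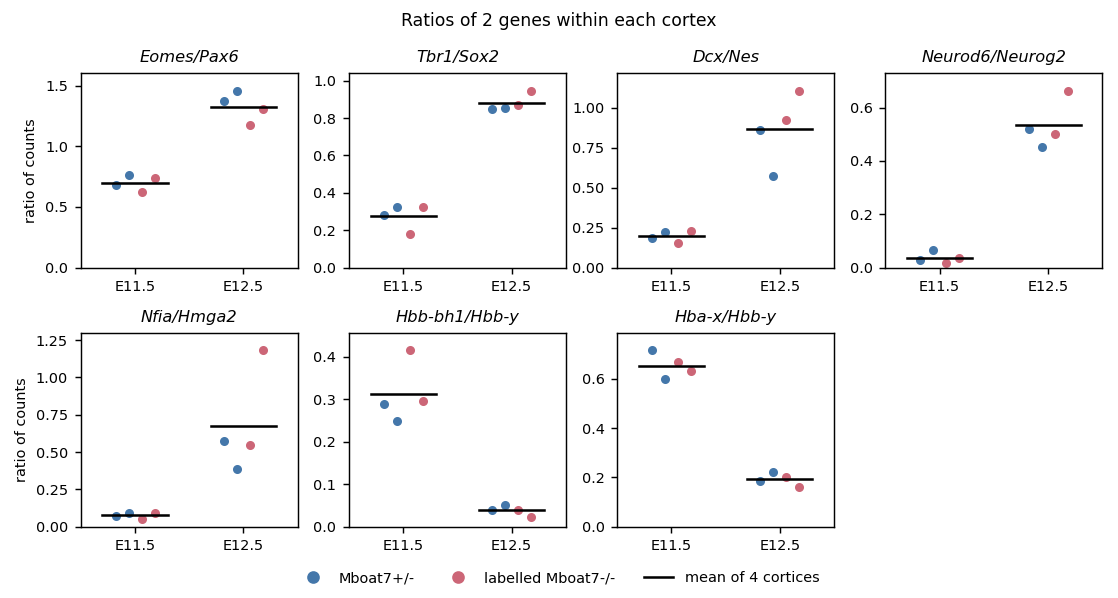
Ratio of the counts of 2 genes within each cortex (linear axes from 0) at E11.5 and E12.5. Points are single cortices, coloured by genotype label, and bars are means of 4. In all 7 panels the cortices of one stage lay apart from those of the other.

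Embryos of one stage also differed from each other along the same genes. At E11.5, Mboat7-/- replicate 1 held the lowest CPM of its stage for 26 of 26 structural and synaptic neuronal genes, 14 of 16 neuronal transcription factors, 17 of 18 ventral and interneuron genes and 10 of 14 genes of later radial glia, and the highest CPM for 11 of 14 timing genes. It was also lowest for 13 of 14 intermediate progenitor and proneural genes. Over all genes tested it was lowest for 28.3% and highest for 29.8%. At E12.5, Mboat7+/- replicate 2 was lowest for 12 of 16 neuronal transcription factors and 10 of 14 genes of later radial glia, against 31.8% of all genes. Columns were matched to embryos by sample title, and the description of this replicate names a differently numbered column. Mboat7-/- replicate 2 was highest for 12 and 10 of these, against 34.2% of all genes. It was lowest for 9 of 14 timing genes, 18 of 20 S-phase genes, 13 of 18 M-phase genes and 5 of 6 globins, against 29.7%. Mboat7+/- replicate 2 was highest for 19 of 20 S-phase genes, against 28.6% of all genes. The lowest cortex for neuronal factors was thus labelled Mboat7-/- at E11.5 and Mboat7+/- at E12.5. Without E11.5 Mboat7-/- replicate 1 the median of the neuronal transcription factors was 0.91 and that of the timing genes -0.92, against 0.96 and -1.08 with all 8 cortices.

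**Figure D5:**
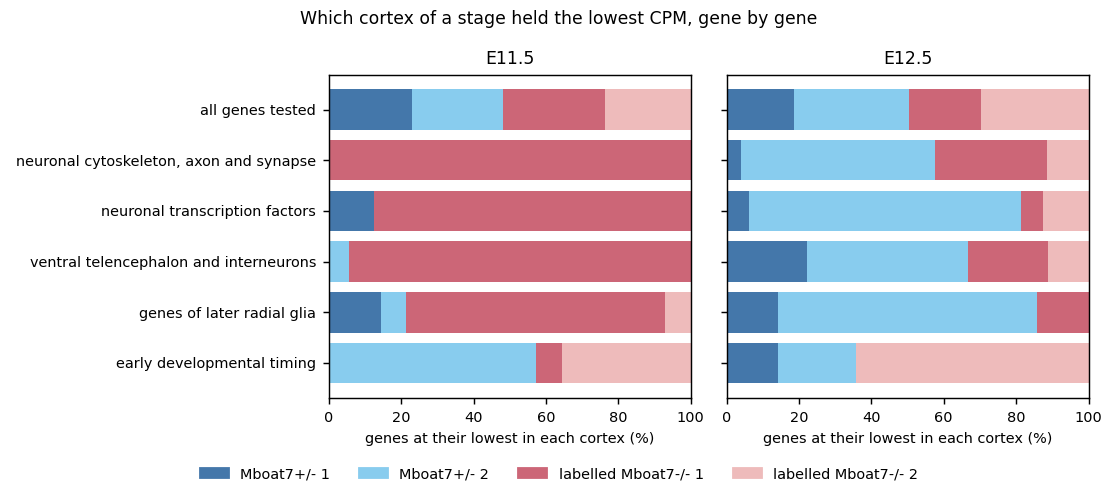
Share of genes (%) whose lowest CPM within a stage fell in each of its 4 cortices, for all 15006 genes tested and for 5 lists. Colours are cortices. At E11.5 the neuronal and ventral lists were lowest in the cortex labelled Mboat7-/- replicate 1, and at E12.5 the neuronal factors and genes of later radial glia were mostly lowest in Mboat7+/- replicate 2.

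The stage difference was found in both genotypes. Within the Mboat7+/- cortices 2917 genes (19.4%) were called and within those labelled Mboat7-/- 3219 (21.5%). In the same direction 2450 were called in both, 84.0% of the first and 76.1% of the second, and 1 gene, the predicted gene Gm21887, was called in opposite directions (-1.80 and 1.64), with 92.0 and 44.8 CPM in the E11.5 Mboat7+/- cortices and 8.45 to 35.5 CPM in the other 6. The interaction of stage and genotype reached an FDR under 0.05 for 0 genes by edgeR, with 856 at an unadjusted p under 0.05, and for 18 genes by DESeq2, with 697 at an unadjusted p under 0.05. Median log2 fold changes of the neuronal transcription factors were 0.94 in the Mboat7+/- cortices and 1.06 in those labelled Mboat7-/-. Those of the mesenchymal genes were -1.25 and -1.34, in the same order. Other lists lay further apart, with 0.72 and 1.00 for structural and synaptic neuronal genes and 0.50 and 0.91 for ventral genes. Later radial glial genes had 0.70 and 1.06, and timing genes -0.89 and -1.37. In fits of each genotype alone, 6 and 13 of 26 structural genes were called higher. For the ventral list these counts were 3 and 8 of 18.

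The largest single differences lay elsewhere. Among genes with at least 10 counts in every cortex, the 12 largest rises ran from 4.61 to 8.76 on the log2 scale, and 10 of them share over 5% of their 31-base words with other genes, 9 of them over 20%. The 10 are Rps27 (8.76), Hnrnpa1 (8.47), Rpl34 (6.95), Snrpn (6.86), Hmga1 (5.87), Glrx3 (5.68), Srp54b (5.58), Pcdhgc4 (5.14), Schip1 (4.85) and Dynlt1f (4.61). Their values are uncertain. The authors' counting could divide reads between copies or overlapping genes, which was not tested. Of the 653 tested genes that share over 50%, 47.9% were called, against 22.1% of the 5484 that share none. Genes sharing over 5% were then set aside, after the values were seen. Zbtb20 and Ttr led the rest, followed by Tmem178b (4.56), Neurod6, Ptar1 (4.41) and the centromere chaperone Hjurp (4.23). Siah3, Aldoc, Cdk6, the potassium channel Kcnq3 (3.96), Igsf9b and Rgs5 came next. The 5% limit concerns shared sequence only, so these values still carry the provider and the annotation. They are also without length and GC adjustment. Hjurp rose while the M-phase list had a median of -0.16, and the part of counting or annotation in its value was not tested. The 12 largest falls ran from -4.08 to -5.02 and included regulators of tissue outside the cortex, with Irx5 (-4.94), Irx3, Six2 (-4.43), Twist1 and the cadherin Cdh3 (-4.15), beside Lin28a, Degs2 (-5.02), Trim7 (-4.28) and the copy-rich genes Rpl37rt, Eif4ebp3 and Taf9. Six2, a factor of head mesenchyme, was at 98.7, 89.2, 151 and 117 CPM at E11.5 and 6.74, 4.78, 6.17 and 3.2 CPM at E12.5.

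Genes counted in 1 stage only number 615 at E12.5 and 1170 at E11.5, of which 52 and 97 had at least 10 counts in each cortex of that stage. At E12.5 the most abundant were Hba-a1, Hba-a2, the ribosomal protein gene Rpl26 (10365 to 13048 counts), Oaz1 (8264 to 9941 counts) and Amd1 (2951 to 4076 counts), and at E11.5 they were 2810025M15Rik, Tmem181b-ps, Slc2a4rg-ps, Exosc6 and 2700099C18Rik, of which the first held 1584 to 2115 counts. Rpl26 and Oaz1 act in every cell, so a gene listed at 0 here is not read as absent and no fold is given. Of 84 ribosomal protein genes, 7 were called higher and none lower, with a median of 0.22, and of 49 histone cluster genes 18 higher and 2 lower, with a median of 0.62. Of these, 81 and 46 share over 5% of their 31-base words with other genes. Of the listed sex genes, Ddx3y, Eif2s3y, Kdm5d and Uty gave 0.12, -0.43, 0.20 and 0.41, and none was called.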

How the data were processed

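Cortical poly(A) RNA of 8 embryos was sequenced from strand-specific libraries. The authors deposited raw counts per gene, 1 table for each stage. The submitters' processing notes name HISAT2, Subread, mm10 and GRCm39 without assigning a build to a table, and versions are not given in the sources used here. The tables held 23420 and 78298 genes. They were joined by symbol or registered synonym, and mitochondrial genes, listed at E12.5 with 2.47 to 2.73% of counts, have no partner. All value columns belonged to a sample.

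Counts were fitted in edgeR 4.0.16 (R 4.3.3) on stage and genotype by the quasi-likelihood test, after TMM scaling and the filterByExpr filter at 10 counts, and p-values were adjusted by Benjamini-Hochberg over all 15006 genes. Alternatives were RLE, upper-quartile and total-count scaling, 2 other filters, DESeq2 1.42.0, limma 3.58.1 on normal scores of ranks, a replicate block, no genotype term, each genotype alone, identical symbols only, length and GC adjustment and leaving out each cortex. Chosen after seeing the values were the limit of 5% on 31-base words shared with other genes, a crossed block, the globin ratios, the UTR grouping and the order of cortices within a stage. Ratios used a pseudocount of 0.5 counts. Python 3.11.15 with numpy 2.4.6, pandas 2.3.3, scipy 1.17.1 and matplotlib 3.10.9 made the summaries. UTRs came from GENCODE M21. The fitting code was tested on simulated data.

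Named genes were, by rule, Mboat7, Sox2, Pax6, Eomes and Tbr1, the genes of the ratios, all globins and sex genes, up to 4 called genes in each direction of each list by smallest p without rank overlap, the 12 largest changes each way among genes with 10 counts in every cortex, and the 5 most abundant genes at 0 in a stage. Further list members were named after their values were seen, and a few members and 1 ratio are not reported here. The members and lists were chosen with earlier results of these data known. Replicate numbers did not pair embryos, which are separate animals at each stage. The floor is 3 counts and covers counting error only, and p-values measure the spread between 4 embryos a stage. Between 2 libraries of a stage, chi-square per degree of freedom was 4.36 to 26.0, so none was a copy of another.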

Additional observations from a re-analysis of the deposited data

Results flagged for a closer look

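In 56 groups of 4 summed list levels, 3 had 1 cortex far from the rest by Dixon's criterion, which chance meets in about 1 of 20. The radial glial and stem cell genes summed to 4431 CPM in E11.5 Mboat7-/- replicate 1, against 4850, 4845 and 4915 CPM in the other E11.5 cortices. The erythroid genes summed to 502 CPM in E11.5 Mboat7+/- replicate 1, the cortex with Xist counts, against 369.6, 359.6 and 354.4 CPM. The M-phase genes summed to 3192 CPM in E12.5 Mboat7-/- replicate 2, against 3373, 3366 and 3344 CPM.

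Counts also lay on genes that could not be paired between the tables and that no comparison used. They held 0.623% of the counts at E11.5 and 5.58% at E12.5, as means of 4 cortices. At E12.5 the 37 genes of the mitochondrial genome are among them.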

How the results depend on the processing

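The counts of genes called higher and lower (1436 and 1914) stayed within 1.5 times under scaling, DESeq2, the replicate block (1436 and 1909), each genotype alone and removal of each cortex (1359 to 1515 and 1848 to 2030). With at least 10 counts in every cortex, a setting that tests fewer genes, 1015 were lower, and normal scores of ranks, which carry no fold limit, gave 4481 and 5111. A rank difference of at least 10 points left 1477 and 1515. DESeq2 gave 18 interaction genes against 0. Same-numbered embryos did not deviate together (correlations 0.0664 at E11.5, -0.155 at E12.5, -0.0184 and 0.0621 across stages), and crossing the E12.5 numbers gave 1432 and 1905 calls. The block ended the call of Trim71 (-0.90).

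Among the list medians that moved beyond the spread between replicates were the following, and the cause was not tested. Radial glial genes had -0.18 with upper-quartile and -0.22 with total-count scaling, 0.028 in the cortices labelled Mboat7-/- alone and 0.021 after length and GC adjustment. Later radial glial genes had 1.06 in the labelled Mboat7-/- cortices. Timing genes had -0.89 in Mboat7+/- and -1.37 in labelled Mboat7-/- cortices, -0.90 with at most 5% shared sequence and -1.26 without E11.5 Mboat7+/- replicate 2. Without single cortices they ranged from -1.26 to -0.91, the others within the spread. Proneural genes had -0.056 with total counts and 0.32 after length and GC adjustment. Erythroid genes had -1.98 with identical symbols and -2.33 with at most 5% shared sequence, and genes of other regions -1.41 with 10 counts in every cortex and -1.36 with at most 5% shared sequence. The phosphatidylinositol and junction genes turned to -0.069 and -0.11 with upper-quartile and total-count scaling. Further medians moved after length and GC adjustment. Cajal-Retzius genes then had -0.37, G1 regulators 0.18, patterning genes -0.08, endothelial and pericyte genes 0.13 and microglial genes -0.0054.

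Of 138 named or listed genes with a call, 114 kept it under every alternative run, 80 of 2832 values lost it and 0 reversed. Of 225 without a call, 78 of 4673 values passed. All 8 ratios, the 2 untested ones included, kept their direction without each cortex, where 3 against 4 was compared with the spread and not tested. The planned ratios of adult globins were not run, since those genes have no usable count at E11.5. Stage, provider and annotation stay 1 term under every setting.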
